A study of Mus musculus with 12 samples.

Results

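The injury response of kidneys that lack Krt20 in the proximal tubule was described by comparing ischemia/reperfusion (IR) with sham surgery within the conditional knockout (cKO). The comparison takes 6 of the 12 kidney libraries of the series, 3 of cKO IR and 3 of cKO sham, over the 12868 of 56748 genes whose level averaged 1 FPKM or more across the 12 libraries. FPKM counts fragments per kilobase of gene, divided by a size set for each library. Here that size was 0.933 to 1.13 times the reads recovered for the library. The other 6 libraries, 3 of wild type (WT) sham and 3 of WT IR, entered the same model and were used to ask where the response of the cKO differed from that of WT. All mice were males aged 8 to 12 weeks under pentobarbital anaesthesia. IR mice had both renal pedicles clamped for 30 min and then 24 h of reperfusion; sham mice had the operation without clamps. Per the labels, Krt20 was deleted in renal proximal tubular cells only, and they name no Cre driver, so other cells of these whole kidneys should keep the gene. No label ties a library to a mouse of its own, so every p-value reflects the spread among libraries, which may be technical. The extraction text speaks of retinas while the tissue field gives kidney; of 9 retina genes none reached 1 FPKM, with 0.268 FPKM for Gnat1 in cKO IR as the highest group mean, whereas proximal tubule genes summed to 21483 to 28536 FPKM in the cKO sham libraries.

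Clamping the renal vessels starves the kidney of oxygen, and the proximal tubule, which depends on mitochondrial respiration to recover salt, glucose, phosphate and amino acids, suffers most. Surviving tubule cells lose their brush border and transporters, switch on injury genes and keratins, and re-enter the cell cycle to replace lost cells. Keratin 20 is a type I keratin of intermediate filaments, known best from the epithelia of gut and bladder. Interferons switch on a large set of antiviral and antigen presentation genes in many cell types.

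The 6 cKO libraries held 14473666 to 15962303 reads, recovered from the FPKM values, and mitochondrial genes took 7.29% to 8.78% of them. The first principal component of the 12 libraries (67.4% of the variance) placed cKO sham at −39.2 to −36.7 and cKO IR at 45.5 to 49.1. In WT IR the spread was wider, with WT IR 2 at 9.8 against 34.9 and 42.1 for WT IR 1 and 3. WT IR 2 also kept more Egf RNA, 18.7 FPKM against 2.65 and 1.46. All comparisons with the WT response include this library unless it is said to be left out. Pearson's r across genes was 0.9797 to 0.9846 between cKO sham libraries and 0.9650 to 0.9829 between cKO IR libraries. The library cKO IR 3 was the highest of the 6 cKO libraries for 9 of 11 endothelial and 7 of 9 stromal marker genes, and for 1 of 10 podocyte genes. The endothelial gene Pecam1, for example, stood at 6.31, 6.98 and 20.2 FPKM in cKO IR 1 to 3, and the collagen gene Col1a1 at 8.93, 16 and 66.3 FPKM. How often cKO IR 3 was the highest library over all tested genes was not counted.

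Krt20 itself, the targeted gene, was nearly silent in cKO sham and abundant in cKO IR. It stood at 0.0343, 0 and 0 FPKM in the cKO sham libraries, with 1 read in all, and at 28.2, 35.6 and 47 FPKM in cKO IR, with 3329 reads. The ratio of reads, which rests on that 1 sham read, was 3141 (95% exact binomial interval 563 to 124094, for counting error only). On the log2(FPKM + 1) scale, which is used for all log2 differences and understates changes of genes with low FPKM, the difference was 5.20 (SE 0.17, limma adjusted p = 4.2e-08), and the exact permutation test of 3 libraries against 3 gave p = 0.1, the smallest it can give. WT libraries went from 0.0384, 0 and 0.157 to 84, 64.9 and 59.9 FPKM, so all 3 cKO IR libraries lay below all 3 WT IR libraries, and the difference between the 2 responses, −0.84, did not pass (adjusted p = 0.13). The table sums each gene over its whole model and all cells, so these levels do not check the deletion in the proximal tubule. Prdx2, the peroxide-reducing enzyme named in the title of the series, stood at 44.2, 42.7 and 44.2 FPKM in cKO sham and 49.1, 46.1 and 41.9 in cKO IR. The groups overlapped (log2 difference 0.06, adjusted p = 0.581 in limma; exact permutation p = 0.5).

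Calls were made at a limma p-value under 0.05 after Benjamini-Hochberg adjustment across the 12868 genes. Of all tested genes, 50.8% were called in either direction, 27.8% as higher and 23.1% as lower in cKO IR, against which the counts of the gene lists below are to be read. The median difference over all tested genes was 0.02. Among called genes, 16 were higher and 11 lower by at least 4 on the log2 scale, and 33 and 43 by 3 to under 4. The groups did not overlap for 3504 of the genes called higher and 2911 of those called lower. Over all 12868 tested genes, called or not, cKO IR lay wholly above cKO sham in 4197 and wholly below it in 3575. Scaling the values to equal read totals moved the all-gene median to 0.08 and the share of calls that were higher from 54.6% to 59.7%. The plot of differences by level shows called genes in both directions over the whole range of expression.

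**Figure D1:**
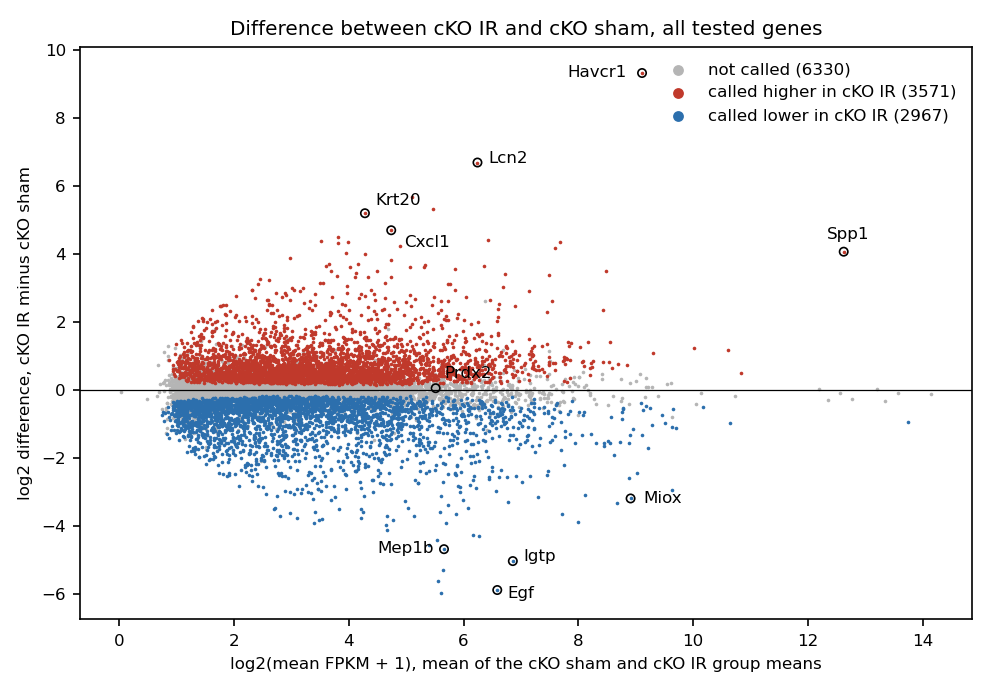
Difference between cKO IR and cKO sham (log2 scale, vertical axis) against mean level (log2 of mean FPKM + 1, horizontal axis) for 12868 genes; each point is 1 gene, red for the 3571 called higher, blue for the 2967 called lower. Havcr1 stands alone at 9.32, and Egf and Igtp lie at −5.87 and −5.02.

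Genes of injured tubules gave the largest rises. Of 26 tubular injury markers, 21 were higher, 1 was lower and 4 were not called, with a median difference of 3.33. Havcr1, which encodes the shed tubular receptor KIM-1, went from 0.286, 0.774 and 1.25 to 1163, 982 and 1159 FPKM. Lcn2, which encodes the iron-siderophore carrier NGAL, went from 0.252, 0.341 and 0.575 to 122, 109 and 215 FPKM. Sprr1a, a cornified envelope gene, went from 0.164, 0.597 and 0.17 to 69.3, 76.5 and 53.1 FPKM. In none of these genes did any sham library come near any IR library. Tnfrsf12a, the receptor of the cytokine TWEAK, went from 5.68, 7.76 and 6.85 to 181, 157 and 152 FPKM, a rise of 4.41 (SE 0.19, adjusted p = 3.41e-07 in limma).

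Spp1, which encodes osteopontin and is named here for its level after its values were seen, went from 661, 752 and 706 FPKM to 12076, 11123 and 12459 FPKM, so it was among the most abundant transcripts of these injured kidneys. The small proline-rich genes Sprr2f and Sprr2g had no read in any cKO sham library against 395 and 636 reads in cKO IR. Against a floor of 3 reads per library, the rises were at least 41.4-fold and at least 66.5-fold; the Sprr2 genes are near copies, so the split of reads between them is uncertain. Igfbp7, a secreted binding protein of insulin-like growth factors and a urinary injury marker, was lower in RNA (979, 962 and 928 to 662, 587 and 696 FPKM; log2 difference −0.56, adjusted p = 0.00187). Another urinary marker, Timp2, overlapped, with 14.3, 19.6 and 17.8 FPKM before 8.42, 8.09 and 17.2, and was not called (adjusted p = 0.112 in limma). Vcam1 (adjusted p = 0.0621), Il18 (0.248) and the progenitor marker Prom1 (0.559) were not called either. Without cKO IR 3 the number called lower in this list was 2.

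**Figure D2:**
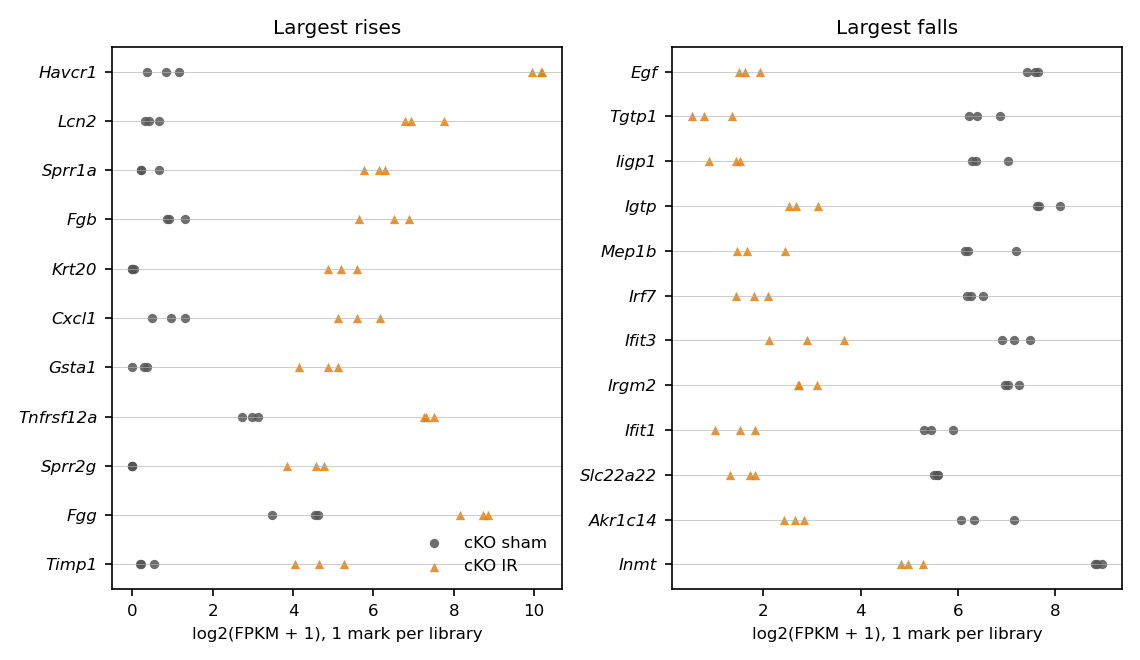
Level of 11 of the 12 genes with the largest rises and of the 12 with the largest falls in cKO IR against cKO sham, as log2(FPKM + 1), with 1 mark per library (grey circles cKO sham, orange triangles cKO IR). In each gene the 3 libraries of the 2 groups stand apart, as the choice of genes required.

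The 12 largest rises also held fibrinogen chains and a matrix regulator. Fgb, the beta chain of the clotting protein fibrinogen, went from 0.832, 1.46 and 0.882 to 89.8, 49.3 and 118 FPKM (log2 difference 5.32, SE 0.37). The gamma chain Fgg went from 10.1, 22.4 and 23.7 to 422, 285 and 458 FPKM (4.36), and the alpha chain Fga from 13.4, 20.8 and 21.8 to 378, 243 and 466 FPKM (4.19). The 3 chains assemble into 1 protein, and in FPKM the Fgb level lay below the other chains in all 6 libraries. Timp1, an inhibitor of matrix metalloproteinases, rose from 0.149, 0.155 and 0.463 to 15.6, 23.9 and 37.8 FPKM (4.34). Each passed in limma, the largest adjusted p being 4.41e-05 for Timp1.

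The whole complement and coagulation list, the 3 fibrinogen chains included, moved both ways, with 7 of 15 higher and 5 lower. F3, the tissue factor that starts clotting, rose (log2 difference 2.22, adjusted p = 1.14e-05). The complement genes Cfb (−1.34), C1ra (−1.48) and C1s1 (−1.37) fell, as did Cd55 (−0.82), which encodes a protein that holds complement back on cell surfaces.

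Among 17 cytokine and chemokine genes, 9 were higher, 2 lower and 6 not called. Cxcl1, which attracts neutrophils, stood at 1.48, 0.954 and 0.402 FPKM in cKO sham and 47.2, 71 and 33.5 in cKO IR (log2 difference 4.70, SE 0.43, adjusted p = 1.96e-05). Lif and Il11, cytokines of the interleukin-6 family, rose by 2.93 and 2.02, and Il34, a ligand of the receptor Csf1r on macrophages, by 2.39 (8.86 ± 4.73 to 46.7 ± 12.2 FPKM, SD, n = 3). Cxcl12, a stromal chemokine that retains leukocytes, fell from 19.2, 22.1 and 23.8 to 2.97, 3.76 and 6.94 FPKM (−2.09), and Il15, which sustains lymphocytes, fell by 1.18. Il1b was not called, with means of 0.82 ± 0.192 and 2.14 ± 1.32 FPKM (SD, n = 3; adjusted p = 0.0927).

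Markers of blood and tissue cells were measured beside these genes. All 4 neutrophil genes that reached the filter, of 10 listed, were higher, and the summed level of the list was 3.09 to 3.43 FPKM in the cKO sham libraries and 19.6 to 28.7 in cKO IR. S100a9 and S100a8, the alarmin subunits of neutrophils, rose by 2.21 and 2.16 on the log2 scale (adjusted p = 0.00105 and 0.0018). Csf3r and Retnlg were called by narrow margins (0.0254 and 0.0479) and lost their calls without a single library, with adjusted p up to 0.0668 and 0.173; the count was 2 of 4 without cKO sham 2, cKO sham 3 or cKO IR 3. The part of these cells in the rises of cytokine genes was not tested. The defining neutrophil gene Ly6g stayed at group means of 0.0476 and 0.135 FPKM.

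Of 11 macrophage and monocyte genes, 2 were higher, 1 lower and 8 not called, and without WT IR 2 in the fit 2 were lower. Cd68, a lysosomal protein of phagocytes, went from 2.05, 2.9 and 3.22 to 10.1, 10.6 and 13.6 FPKM (log2 difference 1.74, adjusted p = 1.64e-05) and Lyz2, a lysozyme, rose by 1.74, whereas Csf1r, the receptor that macrophages need to survive, went from 9.78, 8.21 and 16.4 to 3.2, 3.55 and 6.65 FPKM (−1.19). The tissue macrophage genes Adgre1, C1qa, C1qb and C1qc were not called, with adjusted p of 0.297, 0.482, 0.583 and 0.18. The summed macrophage level, 66.1 to 99.9 FPKM in cKO sham and 61.6 to 111 in cKO IR, overlapped.

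Genes of the proximal tubule were the counterpart of the injury markers. Of 31 transport and metabolism genes of this segment, 26 were lower, 1 was higher and 4 were not called, with a median difference of −1.63. In whole kidney RNA, fewer cells of a type and less RNA per cell cannot be told apart. Slc34a3, a phosphate carrier of the brush border, fell from 37.2, 35.9 and 26.3 to 1.96, 2.52 and 1.67 FPKM (log2 difference −3.48, SE 0.26, adjusted p = 6.97e-06). Miox, which opens the ring of inositol for breakdown, fell from 864 ± 138 to 95.2 ± 20.8 FPKM, Gatm, which makes the precursor of creatine, from 280.3 ± 91.8 to 30.4 ± 7.78 FPKM, and Ass1, an enzyme of arginine synthesis, from 801 ± 95.3 to 136 ± 35.8 FPKM (SD, n = 3). For these 4 genes the highest IR library lay far below the lowest sham library.

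Not every proximal tubule gene fell. Slc13a1, the sodium-sulfate carrier, rose from 56, 66.1 and 60.4 to 162, 157 and 93.7 FPKM (log2 difference 1.13, SE 0.20, adjusted p = 0.0008). Slc2a2, the basolateral glucose carrier GLUT2, was 46, 41.5 and 33.5 FPKM in cKO sham and 49.3, 51.4 and 46.7 in cKO IR (adjusted p = 0.089). Slc22a6, the organic anion carrier OAT1, was 216, 264 and 219 FPKM in cKO sham against 219, 214 and 134 in cKO IR (adjusted p = 0.352). The anion exchanger Slc26a1 (adjusted p = 0.0725) and the amino acid carrier Slc7a12 (0.0562) were not called. A gene more, 2 in all, was higher without cKO sham 1.

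Slc22a22, a prostaglandin carrier of the kidney, Akr1c14, a steroid-reducing enzyme, and Inmt, which methylates indole amines, were among the 12 largest falls. Inmt went from 497, 455 and 469 to 30.6, 38 and 27.6 FPKM (log2 difference −3.86, SE 0.36, adjusted p = 2.14e-05), Slc22a22 from 47.2, 46.9 and 44.9 to 2.28, 2.52 and 1.49 FPKM (−3.95) and Akr1c14 from 66.3, 80 and 142 to 5.29, 6.13 and 4.36 FPKM (−3.89).

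The apical membrane of the proximal tubule lost transcripts for most of its enzymes and receptors: 13 of 16 were lower, 1 higher and 2 not called. Mep1b, a subunit of the metalloproteinase meprin, went from 69.7, 73.3 and 146 to 1.74, 2.17 and 4.44 FPKM (log2 difference −4.67, SE 0.78, adjusted p = 0.000628). The peptidase Mme, also called neprilysin, fell by 1.67, the protein uptake receptors Lrp2 (megalin) and Cubn (cubilin) fell by 1.82 and 1.51, and the scaffold Pdzk1 fell by 1.34. Vil1, which bundles the actin of microvilli, went the other way, from 69.9, 66.1 and 73.7 to 102, 115 and 86 FPKM (0.52, adjusted p = 0.00863). Dab2, the adaptor of megalin, was at 83.4 ± 5.55 and 86.3 ± 11.5 FPKM (SD, n = 3; adjusted p = 0.841).

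Segments beyond the proximal tubule, in which the labels place no deletion, also changed. Among 19 markers of the thick ascending limb and the distal convoluted tubule, 18 were lower and none was higher, with a median of −0.95. Egf, which encodes epidermal growth factor and is made in these segments, had the largest fall of any gene in the lists: 192, 171 and 201 FPKM in cKO sham became 1.83, 2.09 and 2.81 in cKO IR (log2 difference −5.87, SE 0.58, adjusted p = 2.55e-05). Pvalb, a calcium-binding protein of the distal convoluted tubule, fell from 8.38, 10.2 and 10 to 0.361, 0.0621 and 0.373 FPKM (−3.06). The phosphatase inhibitor Ppp1r1b (−3.03) and Klhl3, which governs the degradation of WNK kinases (−1.98), fell too. Cldn19, a claudin of magnesium reabsorption, was not called (adjusted p = 0.254).

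Of 15 intercalated cell genes, which serve acid-base transport, 12 were lower and 3 not called. Slc4a1, the anion exchanger AE1, fell by 2.04, Insrr, a receptor that senses alkali, by 1.61, Rhcg, an ammonia channel, by 1.46 and the proton pump subunit Atp6v1b1 by 1.35 on the log2 scale. The transcription factor Foxi1 (adjusted p = 0.0564) and the carbonic anhydrase Car2 (0.816) were not called. In principal cells of the collecting duct, 6 of 11 genes were lower. The water channel Aqp3 fell from 49.6, 45.7 and 44.4 to 15.7, 17.6 and 16.6 FPKM (−1.43, adjusted p = 2.14e-05), while Aqp2, the channel moved by vasopressin, stood at 87.9, 69.6 and 97.6 FPKM in cKO sham and 61.5, 58.7 and 68.5 in cKO IR and was not called (adjusted p = 0.0967). Hsd11b2, which shields the mineralocorticoid receptor from cortisol-like hormones, fell by 0.92, the receptor gene Nr3c2 by 0.72 and the sodium channel subunit Scnn1a by 1.20. One of 11 was higher without cKO IR 3.

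Glomerular and vascular markers were counted too. Of 10 podocyte genes 3 were lower and 7 not called, and their summed level was 107 to 140 FPKM in cKO sham and 94 to 118 in cKO IR. The slit diaphragm gene Nphs1 (−0.61, adjusted p = 0.00183) and Clic3 (−0.65) fell, and Podxl and Wt1 were not called (0.289 and 0.629). Of 11 endothelial genes 1 was higher and 2 lower; the number lower was 4 without cKO IR 3, the library with the highest endothelial levels, and 1 without cKO sham 1, cKO sham 2, cKO IR 1 or cKO IR 2. Kdr, the main receptor of vascular endothelial growth factor, went from 12.6, 14.7 and 12.5 to 3.76, 4.06 and 8.13 FPKM (log2 difference −1.23, adjusted p = 0.0116). Nos3, the endothelial nitric oxide synthase, went from 1.57, 1.68 and 1.58 to 2.73, 2.46 and 4.48 FPKM (0.66, adjusted p = 0.0103).

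In the stroma and smooth muscle list, 7 of 9 genes were not called. Acta2, the smooth muscle actin, rose from 13.8, 15.1 and 8.81 to 30, 27.1 and 67.8 FPKM (1.56), and Dcn, the matrix proteoglycan decorin, fell from 7.95, 10 and 9.65 to 0.772, 0.852 and 3.62 FPKM (−2.04). Without cKO sham 3 or cKO IR 3 the number called lower was 2. No red blood cell gene of 5 was called; Hbb-bs stood at 98.2, 132 and 98.6 FPKM in cKO sham and 57.6, 28.5 and 104 in cKO IR.

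Keratins and other filament genes rose with the injury markers, 8 of 11 being higher and none lower. Krt8 and Krt18, the keratin pair of simple epithelia, went from 49.2, 48.5 and 55.7 to 327, 352 and 283 FPKM and from 5.7, 5.94 and 4.92 to 37.1, 44.6 and 44.2 FPKM. Their log2 differences were 2.62 (SE 0.14) and 2.72 (SE 0.15), with adjusted p of 2.04e-06 and 2.38e-06. In FPKM, Krt20 in cKO IR overlapped the level of Krt18 and lay below that of Krt8. Lmna, the nuclear lamin A gene, rose by 1.27. Nes (0.0642), Des (0.121) and Krt80 (0.312) were not called.

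Interferon-inducible genes made up 7 of the 12 largest falls, and in them the response of the cKO most often differed from that of WT. All 18 tested members, of 19 listed, of the interferon-inducible GTPases (IRG proteins and guanylate-binding proteins, which attack vacuoles that hold intracellular microbes) were lower, with a median difference of −3.48 and no overlap between the groups in any of them. The gene models of Igtp and Irgm2 overlap on the same strand in the deposited table, so the split of reads between them is uncertain. Their promoters are shown because they hold a motif found in most promoters of the list. They are given from 250 bases before to 50 after the start site in the RefSeq annotation of GRCm38.p6, 5′ to 3′ on the plus strand, at chr11:58199306-58199605 for Igtp and chr11:58214727-58215026 for Irgm2. Capitals mark the core of the interferon-stimulated response element, GAAANNGAA, which begins 34 bases before the Igtp start and 64 bases before the Irgm2 start.
Igtp: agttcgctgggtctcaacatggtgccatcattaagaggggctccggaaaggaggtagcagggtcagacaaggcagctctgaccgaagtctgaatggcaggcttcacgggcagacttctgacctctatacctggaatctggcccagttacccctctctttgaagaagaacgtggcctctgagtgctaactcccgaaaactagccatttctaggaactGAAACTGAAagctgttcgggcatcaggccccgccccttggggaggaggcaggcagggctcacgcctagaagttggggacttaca
Irgm2: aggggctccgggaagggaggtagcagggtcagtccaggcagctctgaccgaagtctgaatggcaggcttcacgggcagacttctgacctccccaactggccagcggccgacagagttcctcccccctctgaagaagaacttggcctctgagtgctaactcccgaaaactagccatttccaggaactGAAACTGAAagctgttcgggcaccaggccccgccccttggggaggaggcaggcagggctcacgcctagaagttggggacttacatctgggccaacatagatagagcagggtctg
The 2 promoters share a run of 61 identical bases. On either strand, the motif occurred in 10 of the 11 promoters of the list with an entry in the table (90.9%) and in 2317 of all 27025 promoters (8.6%). A further motif that was searched, GAS (TTCNNNGAA), is not marked. It occurred in 7 of the 11 (63.6%), among them Igtp and Irgm2 with 1 site each, and in 2288 of all promoters (8.5%).

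Igtp stood at 196, 274 and 202 FPKM in cKO sham and at 5.39, 7.73 and 4.77 in cKO IR (log2 difference −5.02, SE 0.31, adjusted p = 2.9e-06). Irgm2 stood at 125, 152 and 129.7 FPKM in cKO sham and at 5.63, 7.55 and 5.53 in cKO IR (−4.24). In WT, Igtp was 22.5, 11.3 and 9.92 FPKM in sham and 17.6, 14.9 and 9.26 in IR. The cKO sham libraries were the high ones, and the cKO IR libraries were below all WT libraries. The same order held in part for the list: cKO sham lay above every WT library in 18 of the 18 genes, and cKO IR lay below every WT library in 4. Such counts, here and for the lists below, were not made over all tested genes. Summed over the list, the level was 812 to 1101 FPKM in cKO sham, 43.7 to 59.9 in cKO IR, 48.9 to 142 in WT sham and 72.8 to 125 in WT IR. Tgtp1 fell from 83.2, 116 and 73.7 to 0.449, 1.57 and 0.707 FPKM (−5.61), Iigp1 from 82.2, 130.2 and 77 to 0.849, 1.85 and 1.72 FPKM (−5.28), and Gbp10 from 9.35, 14.5 and 9.23 to 0.0646, 0.0334 and 0.0334 FPKM (−3.50). Tgtp1 and Tgtp2, and several of the guanylate-binding protein genes, are near copies, so the split of reads among them is uncertain.

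**Figure D3:**
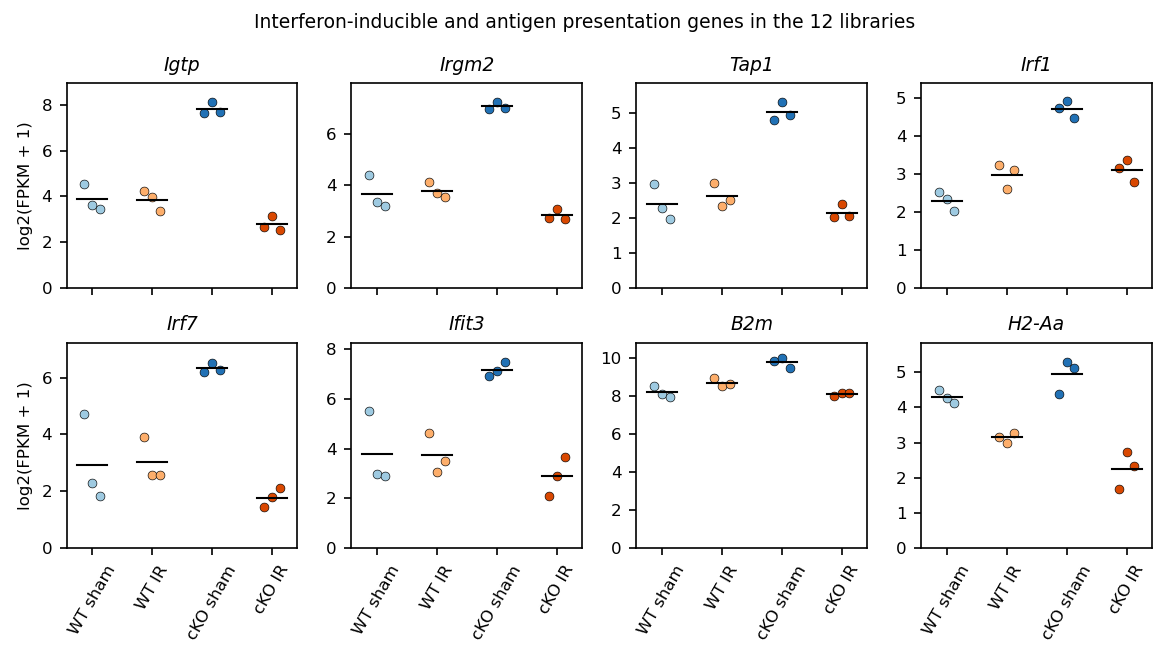
Level of 8 interferon-inducible and antigen presentation genes, as log2(FPKM + 1), in each of the 12 libraries (points) with the mean of each group of 3 (line). The 3 cKO sham libraries lie above all others except for H2-Aa, where cKO sham 1 lies among WT sham; the cKO IR libraries lie below all WT libraries for Igtp, Irgm2 and H2-Aa and overlap them in the other panels.

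Antiviral genes followed the same pattern, with 25 of 25 tested members lower and a median of −2.31. The count was 23 without cKO sham 2, cKO sham 3, cKO IR 1 or cKO IR 3, and 24 without cKO sham 1 or cKO IR 2. Stat2, a transcription factor downstream of the type I interferon receptor, fell by 2.38. Irf7, the master factor of type I interferon production, went from 71.8, 91.1 and 75.9 to 1.69, 2.48 and 3.28 FPKM (−4.55), and Irf1 from 25.7, 28.9 and 21 to 7.84, 9.25 and 5.85 FPKM (−1.61). Ifit1 and Ifit3, which block translation of viral RNA, fell by 4.11 and 4.29, and Xaf1, a cell death promoter, by 2.52. The WT sham group had a high library of its own: WT sham 1 held 25.2 FPKM of Irf7 and 45.2 of Ifit3, against 3.85 and 2.56, and 6.9 and 6.44, in WT sham 2 and 3. The summed level of the list was 677 to 870 FPKM in cKO sham and 85.7 to 109 in cKO IR; in WT sham it was 81.6 to 317. The cKO sham libraries lay above every WT library in 20 of the 25 genes, and the cKO IR libraries below every WT library in 0.

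The interferon genes themselves, and the receptors, were looked up after these values had been seen. Ifng, the gene of interferon gamma, was listed at 0 in 5 of the 6 cKO libraries and at 0.053 FPKM in cKO sham 3, and Ifnb1 was listed at 0 in all 6. The receptor genes Ifngr1 (log2 difference 1.14, adjusted p = 3.33e-05) and Ifngr2 (1.38, 3.97e-05) rose in cKO IR, Ifnar1 rose by 0.44 (0.0047) and Ifnar2 was not called (0.419).

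Antigen presentation genes fell as well. Of 14 genes of the class I pathway 13 were lower, with a median of −1.28, and all 7 of the class II pathway, with a median of −2.36. B2m, the light chain of every class I molecule, went from 927, 1055 and 729 to 259, 283 and 285 FPKM (log2 difference −1.70, SE 0.18, adjusted p = 4.26e-05). H2-T23, a non-classical class I gene, fell by 2.85, the peptide pump subunit Tap1 by 2.86 and Psmb9, a subunit of the immunoproteasome, by 2.57. H2-Aa went from 20, 38.3 and 34 to 2.18, 5.65 and 4.09 FPKM (−2.69), and the invariant chain Cd74 from 222, 289 and 212 to 25, 62.6 and 42 FPKM (−2.53). The proteasome activator gene Psme2 was not called (adjusted p = 0.3). The cKO sham libraries lay above every WT library in 14 of 14 class I genes and 4 of 7 class II genes; cKO IR lay below every WT library in 1 and 4. The summed macrophage, lymphocyte and plasma cell markers (6.85 to 12.9 FPKM for the latter in cKO IR, 7.14 to 10.9 in cKO sham) overlapped between the groups, and their part in these results was not tested.

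The difference between the responses of cKO and WT, the interaction in the same limma model, was called for 113 genes, 0.878% of those tested: 38 with a more positive and 75 with a more negative effect of IR in the cKO, against 1878 genes at an unadjusted p under 0.05. With values scaled to read totals the split was 29 and 111. The counts hung on single libraries. Those more positive numbered 7 without WT sham 2, 10 without cKO sham 2, 18 without cKO sham 3, 20 without cKO sham 1 or cKO IR 1 and 25 without WT sham 3. Those more negative numbered 33 without cKO sham 2, 34 without WT sham 2, 38 without cKO IR 1, 44 without cKO sham 3, 48 without WT sham 3 and 118 without WT sham 1. Of the 75, 17 were interferon-inducible GTPases, 9 antiviral genes, 11 class I and 3 class II genes, from lists of 18, 25, 14 and 7 tested members. Among the antiviral genes the calls for Stat2, Irf7, Ifit1 and Xaf1 rested on the full set: each was lost in 10 or 11 of the 12 fits without 1 library (adjusted p up to 0.126), while that for Irf1 was kept in all 12. Irf7 kept its call without WT sham 1 alone, and the other 3 without WT sham 1 or WT IR 2.

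Among the genes with a more positive effect of IR in the cKO, Pdk4 and Igha changed in opposite directions in the 2 genotypes. Pdk4, the kinase that shuts pyruvate out of the citric acid cycle in fasting, went from 4.23, 3.45 and 3.24 to 31, 25.1 and 53.1 FPKM in the cKO (log2 difference 2.95), and in WT from 24, 20.2 and 17.6 to 6.18, 6.16 and 15.3 FPKM (−1.18). Igha, the heavy chain of immunoglobulin A, went from 0, 0.0774 and 0.206 to 1.24, 2.06 and 2.28 FPKM in the cKO, and from 7.8, 9.24 and 6.39 to 2.89, 1.04 and 1.77 in WT. For both genes it was the cKO sham libraries that were the lowest of all 12. Igkc, an immunoglobulin light chain, rose with Igha in the cKO (1.65, adjusted p = 0.00373), while Ighm, the heavy chain of IgM, fell (−1.45). Aldh1a7, an aldehyde dehydrogenase, rose in both genotypes, by 4.23 in the cKO (1.79, 1.86 and 2.36 to 55.3, 48.6 and 62.4 FPKM) and by 2.99 in WT.

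**Figure D4:**
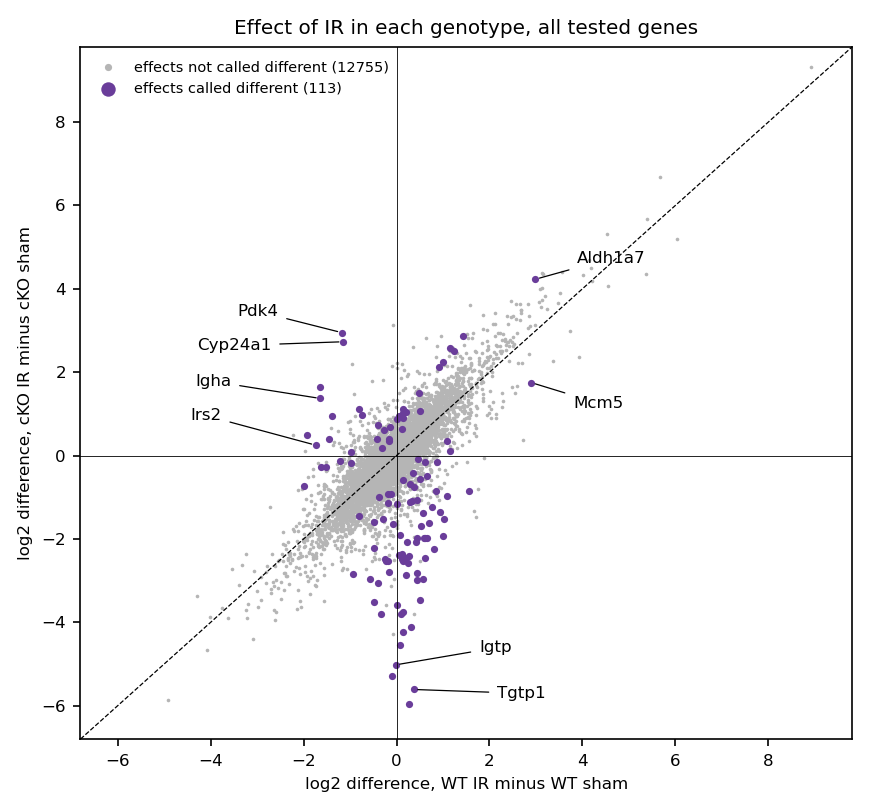
Effect of IR in the cKO (vertical axis) against that in WT (horizontal axis), both as log2 differences, for 12868 genes; purple points are the 113 genes whose effects were called different, and the dashed line marks equal effects. The purple points below the line include Igtp and Tgtp1, with WT effects of −0.02 and 0.37.

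Immediate early and AP-1 genes, the first transcription factors that cells make after stress, rose almost as a whole: 16 of 17 were higher, none lower, with a median of 1.97. Myc went from 1.09, 1.77 and 1.72 to 28.3, 30.7 and 37.3 FPKM (log2 difference 3.71, SE 0.26, adjusted p = 4.4e-06). Atf3, a stress-induced repressor, went from 1.35, 0.99 and 0.987 to 11.7, 18 and 8.3 FPKM (2.64), and Fosl2, a partner of Jun, rose by 2.15. Maff, a small Maf protein, went from 0.739, 0.477 and 0.582 to 11.3, 11.3 and 9.63 FPKM (2.87) and was the 1 member whose response was called different from that of WT (WT 1.44, adjusted p of the difference = 0.0216). That difference was not called without WT sham 2, cKO sham 2, cKO sham 3 or cKO IR 1 (adjusted p up to 0.0748). Klf2 was not called (0.959).

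Targets of NRF2, the factor that answers oxidants and electrophiles, were higher in 16 of 23, lower in 1 and not called in 6, with a median of 1.23. The promoters of G6pdx and Srxn1 are shown because both genes rose and hold the antioxidant response element core TGACNNNGC, in capitals, here on the opposite strand, beginning 57 bases before the G6pdx start and 28 bases after the Srxn1 start. They lie at chrX:74428831-74429130 (minus strand) and chr2:152105274-152105573 (plus strand) of GRCm38.p6 in RefSeq.
G6pdx: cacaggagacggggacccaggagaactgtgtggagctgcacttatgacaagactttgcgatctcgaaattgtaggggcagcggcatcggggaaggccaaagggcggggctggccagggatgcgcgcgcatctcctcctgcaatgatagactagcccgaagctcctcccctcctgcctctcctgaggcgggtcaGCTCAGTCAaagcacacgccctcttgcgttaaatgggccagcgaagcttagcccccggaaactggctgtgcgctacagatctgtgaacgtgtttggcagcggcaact
Srxn1: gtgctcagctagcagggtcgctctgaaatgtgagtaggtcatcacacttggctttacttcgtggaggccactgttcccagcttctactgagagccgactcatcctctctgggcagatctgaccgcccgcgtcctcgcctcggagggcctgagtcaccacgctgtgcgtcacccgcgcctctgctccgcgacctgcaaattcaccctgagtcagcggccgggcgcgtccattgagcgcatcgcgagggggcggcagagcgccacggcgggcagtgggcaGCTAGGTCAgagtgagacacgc
On either strand this motif occurred in 7 of the 20 promoters of the list (35.0%) and in 12.5% of all promoters.

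Srxn1, which reactivates oxidised peroxiredoxins, went from 22.2, 21.1 and 19.1 to 209.8, 127 and 212 FPKM (log2 difference 3.04, SE 0.25, adjusted p = 1.11e-05). The pentose phosphate enzymes G6pdx (8.82, 9.98 and 10.5 to 33.2, 29.7 and 36.8 FPKM) and Pgd (15.3, 15.7 and 14.8 to 67.6, 56.3 and 73.5 FPKM), which supply NADPH, rose by 1.67 and 2.03. Nqo1, a quinone reductase, went from 21.4, 17.1 and 20.6 to 98.6, 79.2 and 115 FPKM (2.24), against 1.01 in WT (adjusted p of the difference = 0.0247); the difference was not called without WT sham 2, WT sham 3, cKO sham 2, cKO sham 3 or cKO IR 1 (adjusted p up to 0.0806). The glutathione transferase Gsta1 was near 0 in cKO sham (0, 0.288 and 0.215 FPKM) and at 28, 16.7 and 33.8 in cKO IR; its near copy Gsta2 makes the split of reads uncertain. Me1, the malic enzyme, fell by 0.76. Keap1, the inhibitor of NRF2, was not called (0.204), nor was Gclc, the catalytic subunit of glutathione synthesis (85.3, 107 and 210.5 against 135, 156 and 225 FPKM, adjusted p = 0.332).

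Peroxiredoxins, the family of Prdx2, were counted with other redox enzymes. This list was called about as often in each direction as all tested genes (27.8% higher, 23.1% lower). Of 17 genes, 5 were higher, 4 lower and 8 not called, and leaving out any 1 of the WT sham libraries, the cKO sham libraries, cKO IR 1 or cKO IR 2 left 3 higher. Prdx6, the 1-cysteine peroxiredoxin, rose from 36.2, 31.7 and 34.5 to 72.4, 60.9 and 60.8 FPKM (log2 difference 0.90, adjusted p = 3.66e-05). Thioredoxin, Txn1, rose by 0.86 and glutaredoxin, Glrx, by 1.05. Sod2, the mitochondrial superoxide dismutase, fell from 34.1, 31.9 and 31.4 to 17.9, 16.9 and 14.6 FPKM (−0.94), Prdx4 of the endoplasmic reticulum by 0.42 and Gpx1 by 0.80. Prdx3 (0.523), Prdx5 (0.39) and Gpx4 (0.664) were not called.

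Ferroptosis, death by iron-dependent lipid peroxidation, is also in the title of the series. Of 15 tested control genes 5 were higher, 4 lower and 6 not called. Acsl4, which loads membranes with oxidisable fatty acids, rose from 12.7, 10.8 and 9.67 to 31.7, 27.5 and 38.4 FPKM (log2 difference 1.47, SE 0.17, adjusted p = 6.84e-05). Lpcat3, which acts after it, rose by 0.56, and Mboat1 and Vkorc1l1, both known as suppressors of this death, rose by 1.01 and 0.43. Por, a donor of electrons for lipid peroxidation, fell by 0.64, Alox12, a lipoxygenase, by 0.49, Cisd1, a mitochondrial iron-sulfur protein, by 0.88 and Scd1, which makes monounsaturated fatty acids, by 2.63. Gpx4, the main enzyme against it, stood at 253, 244 and 292 FPKM in cKO sham and 316, 284 and 239 in cKO IR, and Aifm2 (0.705) was not called. Slc7a11, the cystine carrier, was below the filter, with group means of 0.00962 and 0.419 FPKM.

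Among 13 iron genes, 6 were higher and 6 lower. Hmox1, which frees iron from haem, went from 13.5, 18.2 and 17.7 to 187, 123 and 269 FPKM (log2 difference 3.42, SE 0.32, adjusted p = 2.18e-05). The ferritin chains rose as a pair, Fth1 from 902, 929.8 and 1022 to 2364, 1884 and 2190 FPKM and Ftl1 from 662, 668 and 525 to 1677, 1404 and 1286 FPKM, and so did Tfrc, the transferrin receptor (1.35). Slc39a8, an importer of iron and zinc, fell by 1.66, and Steap3, Ncoa4 and Ireb2 fell by 0.71, 0.39 and 0.39.

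Because the title of the series names exosomes, genes of their formation and release were counted: 17 of 24 were higher, 3 lower and 4 not called, with a median of 0.43. Pdcd6ip, which encodes the sorting adaptor ALIX, went from 27.8, 27.5 and 28.7 to 54.1, 55.4 and 51.1 FPKM (log2 difference 0.91, SE 0.08, adjusted p = 1.56e-05). Sdcbp, which encodes syntenin, its partner, rose by 0.73, the tetraspanin Cd9 by 1.29 and Ralb, a small GTPase of secretion, by 1.09. Smpd1, acid sphingomyelinase, fell by 0.67 and the tetraspanin Cd81 by 0.30. Exosomes themselves were not measured in these RNA data.

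Chaperones rose in part. Of 16 heat shock genes 11 were higher, with a median of 0.61. Hspb1, the small heat shock protein HSP27, went from 5.51, 3.94 and 5.06 to 63.4, 87.4 and 70.9 FPKM (log2 difference 3.68, SE 0.25, adjusted p = 4.37e-06), Cryab rose by 2.65 and Hsp90aa1 went from 68.1, 74.2 and 75.7 to 207, 217 and 199 FPKM. Dnaja1, the 1 member called lower, lost its call without cKO sham 1, cKO sham 3 or any cKO IR library (adjusted p up to 0.0916). The unfolded protein response and ATF4 targets were higher in 17 of 19, with a median of 0.84. Atf4 itself went from 25, 24 and 23.2 to 43, 42.9 and 47.3 FPKM (0.86), its target Asns, asparagine synthetase, rose by 2.26, Manf by 0.95 and Chac1 by 1.32, while Herpud1, a factor of protein disposal at the endoplasmic reticulum, fell by 0.82.

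Targets of p53 and genes of DNA replication rose, and mitosis genes did not. Cdkn1a, the p21 cell cycle inhibitor, went from 1.58, 1.36 and 0.927 to 20.6, 17.1 and 20 FPKM (log2 difference 3.15, SE 0.30, adjusted p = 2.13e-05). Gdf15, a stress cytokine, rose by 3.63, the nuclease Aen by 1.26 and Trp53 by 1.07; in all, 12 of 18 p53 targets were higher and 2 lower. Of 14 genes of DNA replication 13 were higher, with a median of 1.19. Cdt1, which loads the replicative helicase, went from 1.85, 1.93 and 1.84 to 6.86, 8.44 and 6.91 FPKM (1.54), and the helicase subunits Mcm2 and Mcm5 rose by 1.38 and 1.75. For Mcm5 the rise in WT was 2.90 (adjusted p of the difference = 0.038), a difference called in 4 of 12 fits without 1 library, those without WT sham 1, WT IR 2, WT IR 3 or cKO IR 2 (adjusted p up to 0.111).

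None of the 4 tested mitosis genes, of 16 listed, was higher in cKO IR, whereas 3 of the 4 were higher in WT IR. Summed over the list, the level was 12.5 to 18.2 FPKM in cKO sham and 5.81 to 10.2 in cKO IR. In WT it was 5.4 to 6.94 in sham and 10.9 to 24.7 in IR, so cKO sham started above WT sham. No difference between the genotypes passed in this list. Cdc20, which triggers anaphase, went from 1.77, 3.72 and 2.09 to 0.603, 1.52 and 0.901 FPKM (log2 difference −0.80, adjusted p = 0.00901). Mki67 (0.0511), Top2a (0.196) and Ccna2 (0.424) were not called; without WT IR 1 or WT IR 3 in the fit, 2 of the 4 were lower. The other mitosis genes had group means of at most 1.7 FPKM, that of Ccnb2 in cKO sham.

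Cell death genes moved in both directions. Of 16 tested, 7 were higher and 2 lower, among them Zbp1 (−2.39), a sensor of nucleic acids; 1 was lower without WT sham 1, WT IR 1, any cKO sham library, cKO IR 1 or cKO IR 3. The protective genes Bcl2l1 (19.7, 21.4 and 21.3 to 58.5, 55.4 and 51.6 FPKM; log2 difference 1.36, adjusted p = 4.29e-06) and Mcl1 (0.89) rose, as did Casp8 (0.85) and the necroptosis kinase Ripk3 (0.74). Mlkl (0.158) and Gsdmd (0.127) were not called.

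Genes of energy metabolism were lower in some lists and not in others. Of 23 genes of the respiratory chain and citric acid cycle 15 were lower, with a median of −0.46. Of 34 tested genes on the mitochondrial chromosome, looked up after the values had been seen, 2 were higher and 2 lower (median −0.01). Ppargc1a, the coactivator that drives mitochondrial biogenesis, went from 16.5, 13.7 and 15.7 to 5.57, 6.05 and 7.01 FPKM (log2 difference −1.18, SE 0.14, adjusted p = 9e-05). Idh2, Ndufs1 and Ogdh fell by 1.10, 0.81 and 0.69. Gluconeogenesis and fructose breakdown, tasks of the proximal tubule, were lower in 7 of 9 genes: G6pc, the last step of glucose release, fell from 163, 110.3 and 99.4 to 29.3, 19.4 and 38.1 FPKM (−2.08), Sord by 1.56, Slc37a4 by 1.58 and Pcx by 1.47. Pck1, the rate-limiting enzyme, was not called (1234, 914 and 810.3 against 896, 571 and 345 FPKM; adjusted p = 0.121), and 1 gene was higher without WT IR 2.

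Of 24 genes listed under fatty acid oxidation and peroxisomes 3 were higher, 5 lower and 16 not called, a smaller share called than the 50.8% of all tested genes. The largest rise of the list, 2.95, was that of Pdk4, the kinase described above. The number higher was 5 without WT IR 3 or cKO IR 2 and 1 without cKO sham 3 or cKO IR 3, and the number lower was 9 without WT IR 2. Acadm, the medium-chain dehydrogenase, fell from 177, 216 and 307 to 90.4, 84.8 and 82.3 FPKM (log2 difference −1.39, adjusted p = 0.00197), and the fatty acid carrier Slc27a2 fell by 1.08. Cpt1a, the gate of the pathway, stood at 76.4, 80.6 and 78 FPKM in cKO sham and 72.2, 56.3 and 79.6 in cKO IR (adjusted p = 0.22). In glycolysis 8 of 16 genes were higher. Hk2, a hexokinase induced in injury, went from 0.221, 0.231 and 0.333 to 2.21, 3.01 and 2.68 FPKM (1.52), the glucose carrier Slc2a1 rose by 1.30 and Aldoa by 0.70, while Pfkm, a phosphofructokinase, fell by 1.23; without cKO IR 2 or cKO IR 3, 2 genes were lower. In cholesterol synthesis, Cyp51 fell from 75.4, 81.3 and 98.6 to 12, 14.3 and 10.6 FPKM (−2.69, adjusted p = 8.03e-06), 1 of 7 lower genes among 17.

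Of 10 ligands and receptors of the EGF receptor family 3 were higher, 3 lower and 4 not called. Egf is among the lower ones, with Btc, the ligand betacellulin (−0.60, adjusted p = 0.00208), and the neuregulin receptor Erbb4 (−0.47, 0.0239), which lost its call without cKO sham 1, cKO sham 3 or cKO IR 1 (adjusted p up to 0.0933). Nrg1 (neuregulin) rose from 0.625, 0.798 and 0.618 to 6.6, 7.48 and 5.45 FPKM (log2 difference 2.15, SE 0.15, adjusted p = 4.67e-06) and Hbegf from 4.02, 3.26 and 3.6 to 12.2, 14.5 and 11.4 FPKM (1.57), while the receptor Egfr rose by 0.50. Of 16 matrix and integrin genes 9 were higher and 1 lower. Ccn1, a matricellular protein, rose from 13.1, 11.9 and 8.66 to 177, 133 and 140 FPKM (3.64), Itgb6, which activates TGF-beta, by 1.42 and Mmp7 from at most 0.0644 FPKM in a cKO sham library to 2.23, 2.54 and 3.76 FPKM. Timp3 fell by 0.73, and Tgfb1 (0.0505) and Fn1 (0.73) were not called.

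Transcription factors of the tubule were lower in 9 of 18 and higher in 3. Klf15, a factor of amino acid metabolism, fell from 40.6, 28.9 and 31.1 to 8.39, 9.42 and 8.19 FPKM (log2 difference −1.83, SE 0.25, adjusted p = 0.000203), Esrrb by 1.37, Emx1 by 1.23 and Lhx1 by 1.07. Klf5, an epithelial growth factor response gene, rose from 0.14, 0.0529 and 0.132 to 1.89, 3.22 and 2.94 FPKM (1.71), Elf3 by 1.41 and Pax8, which marks the nephron lineage, by 0.78. Pax2 stood at 7.86 ± 0.606 and 7.81 ± 0.618 FPKM (SD, n = 3; adjusted p = 0.949).

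Genes of vitamin D, klotho and calcium handling moved both ways, with 5 of 12 higher, 3 lower and 4 not called. Kl, which encodes klotho, the co-receptor of the phosphate hormone FGF23, fell from 108, 118 and 97.8 to 29.2, 31.7 and 22.7 FPKM (log2 difference −1.92, SE 0.21, adjusted p = 4.26e-05), and the vitamin D receptor Vdr fell by 0.76. Cyp24a1, which degrades active vitamin D, rose from 10.8, 11 and 5.9 to 147, 52.7 and 34.9 FPKM (2.73, adjusted p = 0.00121), against −1.15 in WT (adjusted p of the difference = 0.0358). That difference kept its call in 3 of 12 fits without 1 library, those without WT IR 1, cKO IR 1 or cKO IR 3 (adjusted p up to 0.0844). The phosphate carriers Slc20a1 and Slc20a2 rose by 2.58 and 0.87, the former by 1.15 in WT; that difference (adjusted p = 0.0447) kept its call only in the 2 of 12 fits without cKO IR 2 or cKO IR 3 (adjusted p up to 0.115).

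Of 13 clock genes 10 were lower. Hlf and Tef, output factors of the clock, went from 30.6, 23.6 and 22.9 to 5.21, 6.87 and 3.87 FPKM and from 63.7, 59.2 and 61.3 to 17.7, 26.8 and 18.6 FPKM (log2 differences −2.10 and −1.52). The core repressors Cry2 and Per3 fell by 0.93 and 1.39, and Bhlhe40 rose by 1.39. In WT 2 of the 13 were higher and 2 lower. Among all tested genes, 2910 were higher and 2514 lower in WT, against 3571 and 2967 in the cKO. The WT counts include WT IR 2, which lay between sham and the other IR libraries on the first principal component. No difference between the genotypes passed in this list. The hour of tissue collection is not given in the sources used here. Without WT IR 3 or cKO IR 2, 2 genes were higher in the cKO.

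**Figure D5:**
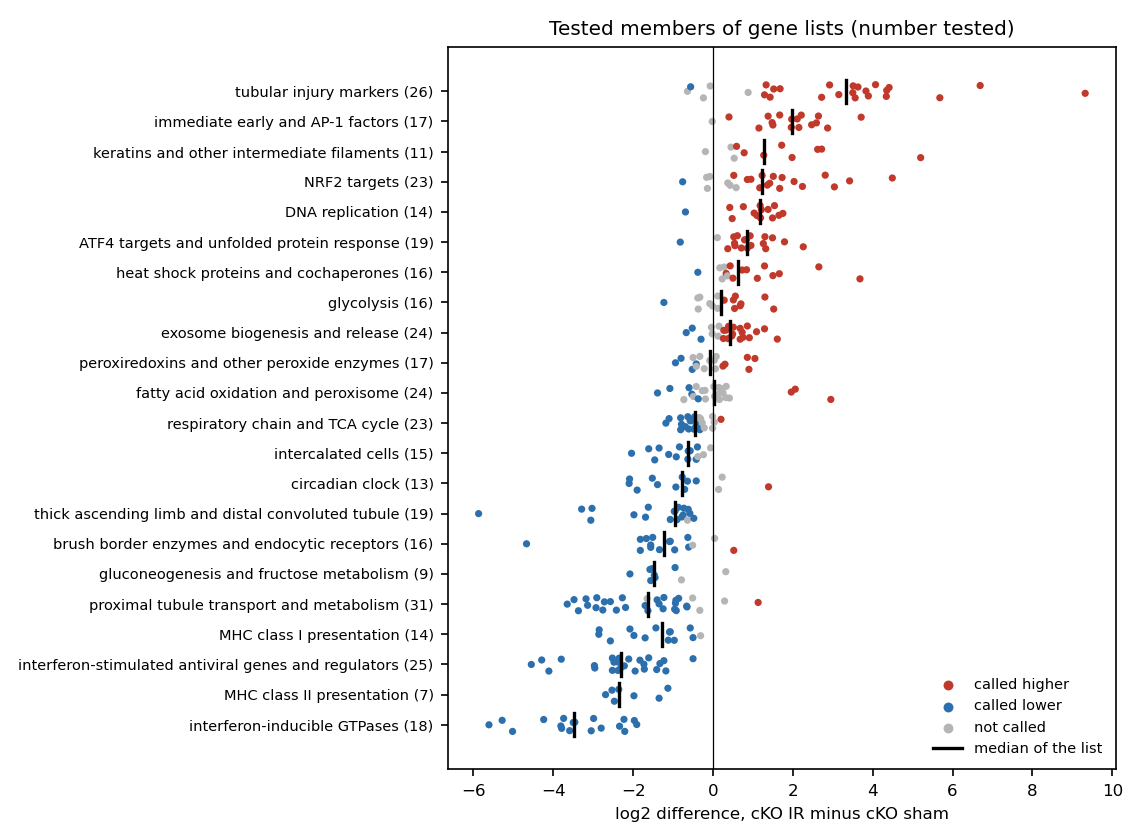
Log2 difference of cKO IR against cKO sham for each tested member of 22 gene lists (1 point per gene, number tested in brackets; red called higher, blue called lower, grey not called) with the median of each list (black line). Medians run from 3.33 for injury markers to −3.48 for interferon-inducible GTPases.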

How the data were processed

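RNA of 12 kidney libraries was sequenced. The authors deposited 1 table of FPKM with 1 column per library; alignment used HISAT2 2.2.1, with builds mm8 and mm9, per the submitters' processing notes. The sources used here do not give counting program, strand or annotation. FPKM times gene length came in whole steps, which gave the reads per library. Genes averaging 1 FPKM or more across the 12 libraries were fitted as log2(FPKM + 1) in limma 3.58.1 under R 4.3.3 with 1 mean per group, a variance trend (8 residual and 2.59 prior degrees of freedom), two-sided tests and Benjamini-Hochberg adjustment; the fit was tested on simulated data. Alternatives covered the pseudocount (0.1), the filter (none, or 5 FPKM), scaling, trend, a replicate block, the cKO libraries alone and each library left out. Scaling was to read totals or by median of ratios. The latter divided all 12 libraries by the same 1.01035, so it was hardly a different setting. Leaving out WT libraries, which enter the shared spread, was added after seeing the data.

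The comparison, the 45 gene lists and the tests were chosen with earlier results of these data known. Named genes are Krt20, Prdx2, the 12 called genes in each direction with the largest difference and no overlap (clone names left out, such as BC023105 at −5.96), up to 4 called members per list and direction with the smallest p, lists of at most 6 tested genes whole, members with no call where a role was described, and, for the interaction, the 6 smallest p each way. Results for some named genes are not reported here. Others are said to be chosen after their values were seen.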

Additional observations from a re-analysis of the deposited data

Results flagged for a closer look

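The effect of IR differed between cKO and WT by the interaction term for 113 genes, and the 12 with the smallest p are given here; each was called in all 12 fits that left out 1 library. For Igtp the cKO effect was different from the WT effect by −5.00 on the log2 scale (adjusted p = 0.000804 in limma, range −5.34 to −4.79 over the 12 fits). For Tgtp1 it was −5.98 (−6.37 to −5.68), for Irgm2 −4.39 (−4.76 to −4.16), for Iigp1 −5.18 (−5.59 to −4.87), for Gbp6 −3.88 (−4.19 to −3.65) and for Tgtp2 −3.47 (−3.81 to −3.22). All 6 encode interferon-inducible GTPases, and in all 6 the 3 cKO sham libraries were above the other 9; Gbp6, for example, stood at 17.5, 28.2 and 16.5 FPKM in cKO sham and at most at 2.3 FPKM elsewhere.

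In the other direction, the difference was 4.13 for Pdk4 (adjusted p = 0.00336, range 3.83 to 4.53), 3.01 for Igha (2.78 to 3.25), 1.99 for Irs2 (1.84 to 2.13), 1.93 for Tmem252 (1.75 to 2.12), 1.24 for Aldh1a7 (1.15 to 1.34) and 1.06 for Etv5 (0.97 to 1.16). Irs2, a docking protein of the insulin receptor, fell in WT from 18.1, 20.8 and 18.5 to 6.36, 5.07 and 3.91 FPKM and stood at 6.28, 6.4 and 4.35 in cKO sham and 6.28, 8.15 and 6.34 in cKO IR. Etv5, an ETS factor, likewise fell in WT from 8.7, 8.38 and 9.54 to 4.7, 3.4 and 3.95 FPKM and was at 4.01, 4.59 and 3.86 in cKO sham. Tmem252 rose from 15.1, 10.5 and 12.5 to 29.7, 30.2 and 26.1 FPKM in the cKO and was 23.4, 29.3 and 22.5 in WT sham. In these 3 genes the cKO sham libraries stood below the WT sham libraries.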

How the results depend on the processing

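All 206 genes named here that were called kept their direction under the 20 alternative settings, and 202 kept their call for cKO IR against cKO sham in every setting that tested them; Csf3r, Dnaja1, Erbb4 and Retnlg lost it without a cKO library. With a filter of 5 FPKM, 1852 genes were lower, of fewer genes tested (7475). Leaving out 1 library gave 3089 to 3703 genes higher and 2516 to 3156 lower in cKO IR. For the interaction, leaving out 1 library gave 7 to 44 genes with a more positive and 33 to 118 with a more negative effect in the cKO. The libraries are named above for the lowest count in each direction and for the 118 more negative, but not for the 44 more positive. With the replicate numbers of the labels as a replicate block, 6353 genes were called in cKO IR against cKO sham, 6225 of them called the same way without it, and the interaction gave 22 and 51. Deviations of same-numbered cKO sham and cKO IR libraries correlated at 0.06, −0.00 and 0.15, and cKO sham 1 correlated better with cKO IR 2 (0.14), so the numbers were not taken as pairs. With 3 libraries a group, small differences may be missed, and a level under 3 reads (0.106 FPKM for Krt20 in cKO sham) is not told from 0.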

Other observations

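Gene classes, transcription factor families and some genes outside the lists were looked up after the values had been seen. Of 594 long non-coding RNA genes 51 were higher and 211 lower in cKO IR, with a median log2 difference of −0.27, while of 507 processed pseudogenes 152 were higher and 36 lower (median 0.29) and of 11305 protein-coding genes 3317 were higher and 2637 lower (median 0.03). With values scaled to read totals the first 2 classes gave 60 and 198 of 591 and 168 and 34. Reads of pseudogenes can come from near-identical parent genes, and strand was not given, so antisense genes and their partners cannot be told apart.

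Among 39 genes of the bZIP family, which holds Fos, Jun, Maf and ATF factors, 23 were higher and 6 lower, with a median of 0.43. Of 15 genes that the table puts in the THR-like family of nuclear receptors 7 were lower and none higher (median −0.47), among them the thyroid hormone receptors Thra (−0.83) and Thrb (−0.57). Of 326 C2H2 zinc finger genes 36 were higher and 71 lower. Cebpb and Cebpd, bZIP factors of the acute phase, rose by 1.95 and 2.37; Cebpb went from 9.93, 9.93 and 8.07 to 40.1, 35.5 and 40.5 FPKM.

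Plin2, which coats lipid droplets, went from 26.6, 28.9 and 30.2 FPKM in cKO sham to 389, 179 and 414 in cKO IR (log2 difference 3.38, adjusted p = 1.1e-05 in limma). S100a11 rose by 2.36, and the hydroxysteroid dehydrogenase Akr1c21 fell by 3.31. BC024386, a gene known only by a clone name, went from 92.3, 89.4 and 81.4 to 2.93, 6.02 and 1.74 FPKM (−4.39, adjusted p = 6.74e-05).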
